A study of Mus musculus with 24 samples.

Results

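The 35 genes described here encode plasma proteins that fetal hepatocytes secrete, or proteins that help to assemble them, and include 3 transcription factors of the same cells. They were chosen by name, from what is known of their products, out of the 34745 genes in the deposited table, and all 35 were found there. Their RNA was measured in whole E13.5 mouse embryos of the 129/DBA hybrid background, with 1 RNA-seq library per embryo. *Zfp57* encodes a KRAB zinc finger protein that maintains DNA methylation imprints. The 6 M-Z+ embryos (*Zfp57*-/+) lacked maternal *Zfp57* and carried a wild-type allele from the father, whereas the 6 M-Z- embryos (*Zfp57*-/-) lacked maternal and zygotic *Zfp57*. Absence of maternal *Zfp57* was thus common to both groups, because all mothers were *Zfp57*-/- females of the 129 strain and the fathers were heterozygous males. Neither sex nor litter nor batch is given for these embryos, and the liver was not dissected from the rest of the body. The 12 embryos with bisulfite sequencing were not analysed here.

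Total counts on genes ranged from 12347383 to 19216288 in the M-Z+ libraries and from 12005145 to 14617373 in the M-Z- libraries. Counts are given below as CPM, after TMM normalization of library size. Levels of different genes are compared only as TPM, which also divides by the gene length that the deposited FPKM imply. For some genes, such as *Apoe*, that length is longer than the gene's span. *Zfp57* itself was counted at 19.1 to 40.8 CPM in M-Z+ embryos and at 17.8 to 27.8 CPM in M-Z- embryos (log2 fold change −0.15, SE 0.18, edgeR adjusted p = 0.828), so its total over the gene did not separate the genotypes and does not check the labels. Nothing in the sources says which exons the mutant allele still transcribes.

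At midgestation the fetal liver is a site of blood formation, and its hepatoblasts already secrete the carriers, apolipoproteins, clotting factors and protease inhibitors of fetal plasma. Many of these genes are known targets of HNF1, HNF4, FOXA and C/EBP factors, which bind close to their start sites. In a whole embryo, fewer hepatocytes and less RNA per hepatocyte cannot be told apart. Some products named here are also made outside the liver, by the visceral yolk sac, the choroid plexus or macrophages, and markers of those cells are given below.

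The bases just upstream of the start sites are shown for *Alb*, *Afp* and *Fgb*, whose levels moved together across embryos, and for *Apob*, which was low in M-Z+ embryo 4 and high in M-Z+ embryo 6 and M-Z- embryo 5, where those genes were high and low. Each run is the 150 bases before the start site in RefSeq promoter windows of build GRCm38.p6, written 5′ to 3′ on the strand of the gene, and capitals mark every match to the motifs named after the sequences. *Alb* was read from chr5:90460720-90460869 on the plus strand, *Afp* from chr5:90490564-90490713 on the plus strand, *Fgb* from chr3:83049864-83050013 on the minus strand, and *Apob* from chr12:7977527-7977676 on the plus strand. Distances below are from the start site of the window. The gene positions deposited with the counts begin elsewhere for *Alb* (90460897), *Afp* (90490737) and *Apob* (7977648). For *Apob* that position lies within the printed run.
Alb: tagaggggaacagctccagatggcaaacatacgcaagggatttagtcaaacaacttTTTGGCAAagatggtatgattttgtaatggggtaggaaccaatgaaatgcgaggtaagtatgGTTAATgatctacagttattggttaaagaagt
Afp: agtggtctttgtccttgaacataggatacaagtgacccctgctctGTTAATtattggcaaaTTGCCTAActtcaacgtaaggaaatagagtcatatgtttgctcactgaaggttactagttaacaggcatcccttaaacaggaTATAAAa
Fgb: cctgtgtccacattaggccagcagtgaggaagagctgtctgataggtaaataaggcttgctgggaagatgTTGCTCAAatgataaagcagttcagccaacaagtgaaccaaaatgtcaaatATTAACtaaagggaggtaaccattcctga
Apob: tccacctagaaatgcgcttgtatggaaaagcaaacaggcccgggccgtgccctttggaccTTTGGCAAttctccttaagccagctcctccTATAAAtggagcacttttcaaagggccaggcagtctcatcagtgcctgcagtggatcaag
Both strands of the 250 upstream bases were searched for the palindromic HNF1 site (a core, any base and the inverted core), its core GTTAAT, the HNF4 site CAAAGTCCA, the FOXA site TGTTTAC, the C/EBP site TTGCNNAA and the TATA box TATAAA. The core lies within the full HNF1 site. A window was found for 29 of the 35 genes, and *Apoc1*, *Trf*, *Ttr*, *Plg*, *Kng1* and *Serpina6* had none. In the *Alb* window the HNF1 core is 32 to 27 bases before the start, on the plus strand, and in the *Fgb* window it is 29 to 24 bases before the start, on the minus strand. In the *Afp* window it is 105 to 100 bases before the start. The core was found in 11 of the 29 genes (37.9%), as against 7.49% of 27025 genes with a window. The C/EBP letters were found in 11 of the 29 genes as well (37.9%), as against 10.8% of all genes, and *Alb*, *Afp*, *Fga*, *Fgb* and *Cp* had both. The FOXA letters were found in *Apoa2*, *Apoh*, *Rbp4* and *Fetub* (4 of 29, against 3.54% of all genes), and the TATA box in 9 of 29 genes (31.0%, against 14.3%). The full HNF1 site and the HNF4 letters were found in none of the 29 genes, and in 0.0111% and 0.451% of all genes. The *Apob* window held the C/EBP letters and a TATA box but no HNF1 core. *Apoa1*, whose levels moved with those of *Alb*, had no HNF1 core either. Whether any motif goes with the levels of a gene across embryos was not tested.

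*Alb* and *Afp* dominated the RNA of these genes. *Alb*, which encodes serum albumin, had a mean of 2474 TPM and stood at rank 33 of all genes in the table, and *Afp*, the fetal albumin-like carrier, had a mean of 2047 TPM and rank 45. The 35 genes together summed to between 5324 and 12861 TPM per embryo, and *Alb* and *Afp* supplied from 47.3% to 52.0% of that sum. Next in order of mean TPM were the corticosteroid-binding globulin gene *Serpina6* (662), the apolipoprotein gene *Apoa1* (515), the thyroxine carrier gene *Ttr* (449) and the vitamin A carrier gene *Rbp4* (416). These neighbours in the order overlapped in their ranges over embryos, since *Serpina6* ranged from 409 to 903 TPM and *Apoa1* from 267 to 826 TPM. At the other end were ceruloplasmin, the copper carrier (*Cp*, 1.79 TPM), the bile acid receptor FXR (*Nr1h4*, 1.73 TPM) and *Fetub*, a fetuin, at 0.54 TPM. *Fetub* had between 0 and 1.01 CPM in the 12 embryos and did not pass the filter on low counts, so that 34 of the 35 genes entered the test.

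**Figure D1:**
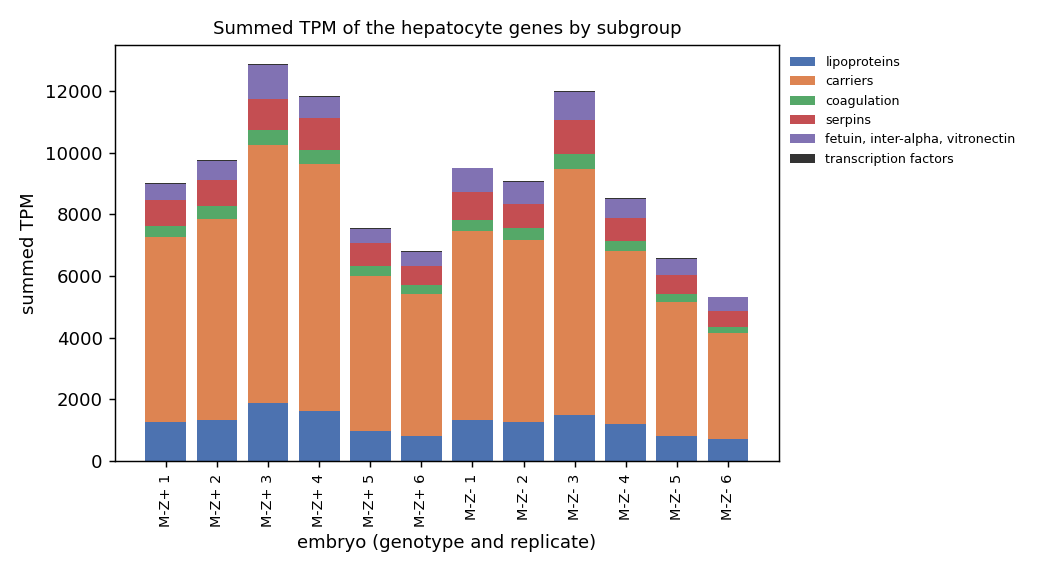
Stacked bars give the summed TPM (y axis) of the 35 hepatocyte genes in each of the 12 embryos (x axis), divided by subgroup, with M-Z+ embryos on the left and M-Z- embryos on the right. The sum ranged from 5324 TPM in M-Z- embryo 6 to 12861 TPM in M-Z+ embryo 3, and the carriers, which include *Alb* and *Afp*, made up most of every bar.

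M-Z- embryos were compared with M-Z+ embryos to see whether loss of zygotic *Zfp57* went with a change of these genes. None of the 34 tested genes was called (a log2 fold change over 0.5 in size with an adjusted p under 0.05) by the quasi-likelihood test of edgeR, where 0.0811% of the 16026 genes tested were called. None was called by DESeq2 either, which called 0.231% of all genes, by edgeR with 2 surrogate variables, which called 0.193%, or by edgeR with the gene length slope described below, which called 0.144%. With the unadjusted edgeR p in place of the adjusted one, 0 of the 34 passed both limits, as against 1.54% of all genes (0.749% on the lower side). Log2 fold changes were below 0 for 27 of the 34 genes, as against 51.7% of all genes, with a median of −0.18 (−0.01 over all genes). Once the gene length slope entered the fit, they were below 0 for 12 of the 34, with a median of 0.05. In that fit 7908 of all 16026 genes were below 0, with a median of 0.002. The slope was on average steeper in M-Z- embryos (mean 0.528, SD 0.059) than in M-Z+ embryos (mean 0.480, SD 0.074). A fit with it can therefore also take up part of a difference between the genotypes. The CPM of the genotypes overlapped for all 34 genes, while the genotypes did not overlap for 0.574% of all genes. In the exact two-sided permutation test on mean log2(CPM + 1), 0 of the 34 genes had a p below 0.05, as against 7.16% of all genes.

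**Figure D2:**
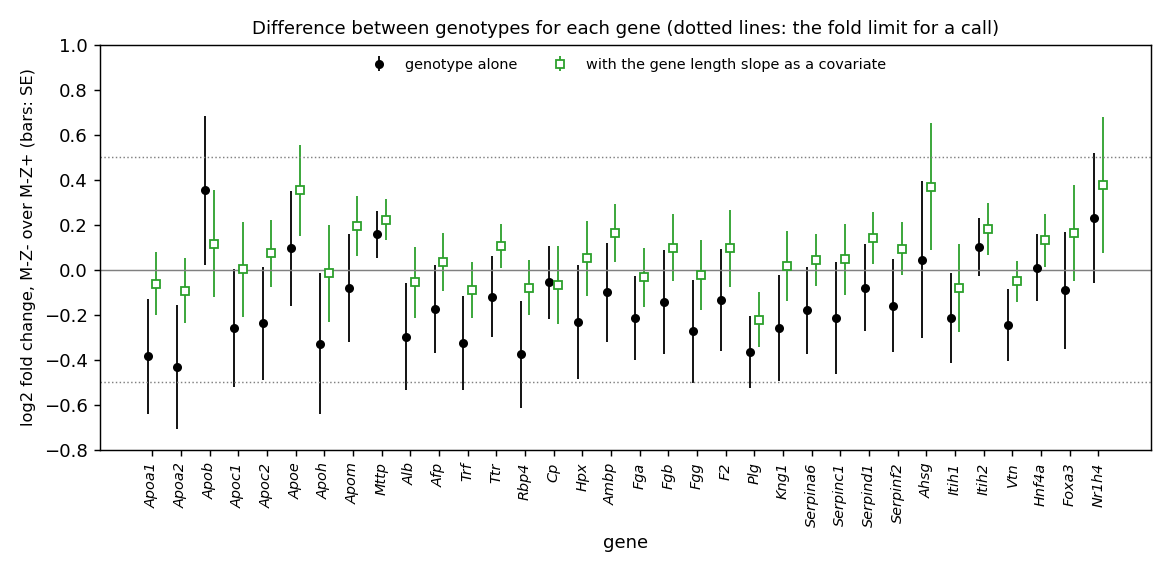
Points give the log2 fold change of M-Z- over M-Z+ embryos (y axis, bars are SEs, n = 6 embryos per genotype) for each of the 34 tested genes (x axis), from edgeR with genotype alone (filled) and with the gene length slope added to the fit (open). With genotype alone the values ran from −0.43 for *Apoa2* to 0.35 for *Apob*, none passed the dotted limit of 0.5, and most open points lie nearer to 0 or above it.

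Among the carriers, *Alb* was measured at 1808, 1956, 2567, 2695, 1620 and 1299 CPM in M-Z+ embryos 1 to 6 and at 1809, 1717, 2530, 1639, 1180 and 848 CPM in M-Z- embryos 1 to 6. M-Z+ embryos 3 and 4 and M-Z- embryo 3 were high, M-Z- embryos 5 and 6 and M-Z+ embryo 6 were low, and the genotypes overlapped over most of their ranges. Its log2 fold change was −0.30 (SE 0.24, edgeR adjusted p = 0.763, exact permutation p = 0.238, n = 6 per group). *Afp* had a low of 1805, a median of 2581 and a high of 3394 CPM in M-Z+ embryos, against 1452, 2468 and 3234 CPM in M-Z- embryos. The same embryos were at its extremes, and its log2 fold change of −0.17 (SE 0.20) became 0.03 with the gene length slope. *Rbp4* ranged from 101 to 249 CPM with a median of 160.1 in M-Z+ embryos and from 77.5 to 187 CPM with a median of 147 in M-Z- embryos, a log2 fold change of −0.38 (SE 0.24, edgeR adjusted p = 0.753). It was the lowest of the 8 carriers, whose log2 fold changes ran from −0.38 to −0.06. *Cp* stood at the upper end, at 5.44 to 11.2 CPM in M-Z+ and 5.92 to 8.20 CPM in M-Z- embryos. The other carriers were *Trf* (transferrin, which carries iron), *Ttr*, *Hpx* (hemopexin, which binds heme) and *Ambp* (alpha-1-microglobulin and bikunin), and with genotype alone none of the 8 passed the unadjusted p.

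The lipoprotein genes held both ends of the range. *Apoa1* encodes the main protein of high-density lipoprotein and lies on chromosome 9 from 46228580 to 46230466 on GRCm38. It was measured at 127, 234 and 348 CPM (lowest, median and highest) in M-Z+ embryos and at 105, 205 and 269 CPM in M-Z- embryos, and its log2 fold change was −0.38 (SE 0.26, edgeR adjusted p = 0.753). *Apoa2*, another protein of these particles, had the lowest log2 fold change of all 34 genes, −0.43 (SE 0.28, edgeR adjusted p = 0.753), with 46.9, 87.9 and 135 CPM in M-Z+ embryos against 31.6, 77.6 and 84.7 CPM in M-Z- embryos. Once that slope entered the fit, the log2 fold changes of *Apoa1* and *Apoa2* were −0.06 and −0.09. When M-Z+ embryo 6 was left out, *Apoa1*, *Apoa2* and *Rbp4* passed the unadjusted p with the fold limit (log2 fold changes of −0.53, −0.57 and −0.50, edgeR adjusted p = 0.284, 0.293 and 0.287).

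*Apob*, the scaffold of very-low-density lipoprotein, was the member with the highest log2 fold change, 0.35 (SE 0.33, edgeR adjusted p = 0.781). In M-Z+ embryos 1 to 6 it was measured at 135, 199, 223, 59.2, 67.8 and 276 CPM. In M-Z- embryos 1 to 6 it was measured at 182, 173, 222, 147, 278 and 225 CPM. Its highest values were thus in M-Z- embryo 5 and M-Z+ embryo 6, where *Alb* was low, and its lowest in M-Z+ embryo 4, where *Alb* was highest. Other embryos did not follow this order. In M-Z+ embryo 5 both *Apob* (67.8 CPM) and *Alb* (1620 CPM) were below their M-Z+ medians, and in M-Z+ embryo 3 both were above them. The log2 fold change of *Apob* was 0.12 with the gene length slope and −0.02 with 2 surrogate variables. *Mttp*, the transfer protein that loads lipid onto apolipoprotein B, ranged from 25.8 to 35.2 CPM in M-Z+ and from 30.7 to 41.6 CPM in M-Z- embryos, and *Apoe* had a log2 fold change of 0.10 (SE 0.26). *Apoc1*, *Apoc2*, *Apoh* and *Apom* were between −0.33 and −0.08, and with genotype alone none of the 9 passed the unadjusted p.

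All 6 coagulation genes had log2 fold changes below 0 with genotype alone, from −0.37 to −0.13, and 3 of 6 were below 0 with the gene length slope. *Plg*, which encodes plasminogen, the precursor of the fibrin-cleaving enzyme plasmin, was with genotype alone the lone gene of the 34 with an unadjusted p below 0.05 without a fold limit, as against 3.26% of all genes that did so on the lower side. It was measured at 77.9, 76.5, 99.8, 84.3, 69.4 and 60.5 CPM in M-Z+ embryos and at 61.1, 68.2, 84.2, 61.3, 47.6 and 41.4 CPM in M-Z- embryos. Its log2 fold change was −0.37 (SE 0.16, unadjusted edgeR p = 0.0391, edgeR adjusted p = 0.744), the exact permutation p was 0.0563, and the ranges overlapped. With 2 surrogate variables in the fit, 9 of the 34 genes had an unadjusted p below 0.05 without a fold limit, all 9 on the lower side, as against 4.55% of all genes on that side. These were *Plg*, *Fgg*, *Kng1*, *Alb*, *Trf*, *Rbp4*, *Apoa1*, *Apoa2* and *Apoh*, at log2 fold changes of −0.38 to −0.22, and the lowest edgeR adjusted p among them was 0.0684. With the gene length slope *Mttp* alone passed that p, at a log2 fold change of 0.22. The 3 fibrinogen chain genes lie side by side on chromosome 3. *Fgg*, the gamma chain gene, had 35.3, 62.9 and 81.9 CPM in M-Z+ embryos against 29.2, 54.8 and 72.6 CPM in M-Z- embryos (log2 fold change −0.27, SE 0.23), and *Fga* and *Fgb* had log2 fold changes of −0.22 and −0.14. The counts of *Fgb* and *Fga* stayed near a ratio of 1, from 0.817 to 1.14 over the 12 embryos. *F2*, the prothrombin gene, had 28.1, 42.1 and 68.3 CPM in M-Z+ embryos against 24.3, 43.2 and 58.2 CPM in M-Z- embryos. *Kng1*, which encodes kininogen and has a closely similar neighbouring copy in the mouse, was at −0.26 (SE 0.23), and reads shared between the copies could have been counted for either.

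The 4 serpin genes were at log2 fold changes of −0.21 to −0.08, and with the gene length slope all 4 were above 0, from 0.04 to 0.14. *Serpina6* had 264, 379.8 and 507 CPM in M-Z+ embryos against 214, 338 and 505 CPM in M-Z- embryos. *Serpinc1*, which encodes antithrombin, had 23.0, 34.8 and 53.9 CPM against 15.9, 32.9 and 47.7 CPM. For *Serpind1*, the heparin cofactor gene, the values were 32.0, 50.2 and 59.4 CPM against 28.9, 49.4 and 62.1 CPM, and for *Serpinf2*, which encodes the inhibitor of plasmin, they were 72.05, 109.9 and 159.6 CPM against 62.9, 105 and 143 CPM. The lowest edgeR adjusted p of the 4 was 0.801. The ranges of the genotypes overlapped for all 4 genes.

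Among the fetuin, inter-alpha-trypsin inhibitor and vitronectin genes, *Ahsg* (fetuin-A, an inhibitor of mineral deposition) varied widely within the M-Z+ group, from 62.4 to 269.7 CPM with a median of 102. In M-Z- embryos it ranged from 69.2 to 203 CPM with a median of 142, and its log2 fold change was 0.04 (SE 0.35). *Vtn*, which encodes the adhesive plasma protein vitronectin, had 57.8, 84.5 and 103 CPM in M-Z+ embryos against 47.4, 72.5 and 93.7 CPM in M-Z- embryos (log2 fold change −0.25, SE 0.16, edgeR adjusted p = 0.753). *Itih2* encodes a heavy chain that is joined to bikunin, the product of *Ambp*, and to hyaluronan. It varied less, at 205, 238 and 326 CPM in M-Z+ embryos against 209, 259 and 329 CPM in M-Z- embryos (log2 fold change 0.10, SE 0.13). *Itih1* had 7.24 to 15.6 CPM against 6.84 to 12.9 CPM.

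Another heavy chain gene, *Itih3*, is not among the 35 genes and was chosen for description after its values were seen. It was measured at 25.6, 28.4 and 42.9 CPM (lowest, median and highest) in M-Z+ embryos and at 11.1, 18.9 and 21.2 CPM in M-Z- embryos, and the genotypes did not overlap. Its log2 fold change was −0.85 (SE 0.17). The call depended on the test, since edgeR gave an adjusted p of 0.145, DESeq2 0.0012, edgeR with 2 surrogate variables 0.0055 and edgeR with the gene length slope 0.072. *Itih1*, *Itih3* and *Itih4* are neighbours on chromosome 14, from 30886476 (start of *Itih4*) to 30943289 (end of *Itih1*). The groups overlapped for *Itih1*, *Itih2* and *Itih4*, and whether *Itih3* differed from these 3 genes was not tested.

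**Figure D3:**
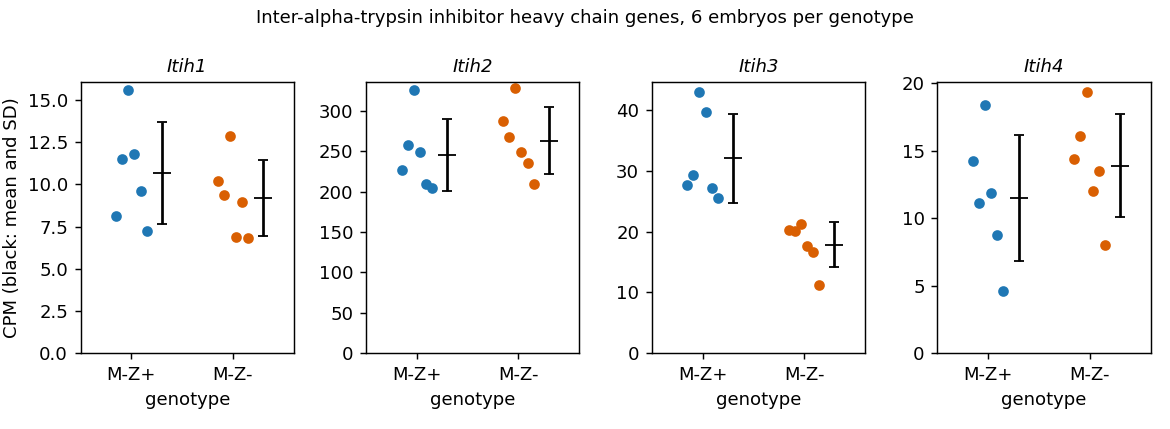
Points give the CPM (y axis) of *Itih1*, *Itih2*, *Itih3* and *Itih4* in each of 6 M-Z+ and 6 M-Z- embryos (x axis), and black marks give the mean and SD. The *Itih3* values of 25.6 to 42.9 CPM in M-Z+ embryos lie above those of 11.1 to 21.2 CPM in M-Z- embryos, whereas the groups overlap in the other panels.

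The 3 transcription factor genes had log2 fold changes from −0.09 to 0.23. *Hnf4a*, a nuclear receptor that controls much of the hepatocyte programme, was measured at 21.5, 26.8 and 31.6 CPM in M-Z+ embryos and at 18.3, 28.7 and 31.5 CPM in M-Z- embryos. Its log2 fold change was 0.01 (SE 0.15, edgeR adjusted p = 0.990), and the sign turned with library totals or surrogate variables. *Foxa3*, a forkhead factor, ranged from 3.93 to 10.2 CPM in M-Z+ and from 2.89 to 7.40 CPM in M-Z- embryos (log2 fold change −0.09, SE 0.26). *Nr1h4* was counted at 0.83 to 2.26 CPM in M-Z+ and 0.98 to 2.61 CPM in M-Z- embryos (log2 fold change 0.23, SE 0.29). Of 17 other transcription factors of the liver, 15 were tested and none was called, with log2 fold changes from −0.29 to 0.47. *Prox1* and *Cebpa*, the 2 with the highest mean TPM, had 33.3 to 48.3 and 12.5 to 20.9 CPM in M-Z+ embryos against 40.1 to 52.4 and 12.7 to 22.7 CPM in M-Z- embryos.

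The median within-genotype SD of log2(CPM + 1) was 0.44 over the 34 genes and 0.22 over all genes tested. M-Z+ embryo 3 had 33 of the 34 genes above their 12-embryo mean, M-Z+ embryo 4 had 30 and M-Z- embryo 3 had 32, whereas M-Z+ embryo 6 had 1, M-Z- embryo 5 had 3 and M-Z- embryo 6 had 2. M-Z- embryo 6 was the lowest of the 12 for 24 genes. The highest value was in M-Z+ embryo 4 for 14 genes, in M-Z+ embryo 3 for 12 and in M-Z- embryo 3 for 7. The 35 genes took 1.03% of all counts in each of M-Z+ embryos 3 and 4, 0.97% in M-Z- embryo 3 and 0.42% in M-Z- embryo 6. A first principal component carried 83.6% of the within-genotype variance of the 34 genes, and 33 of them had loadings of one sign, *Apob* being the exception.

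**Figure D4:**
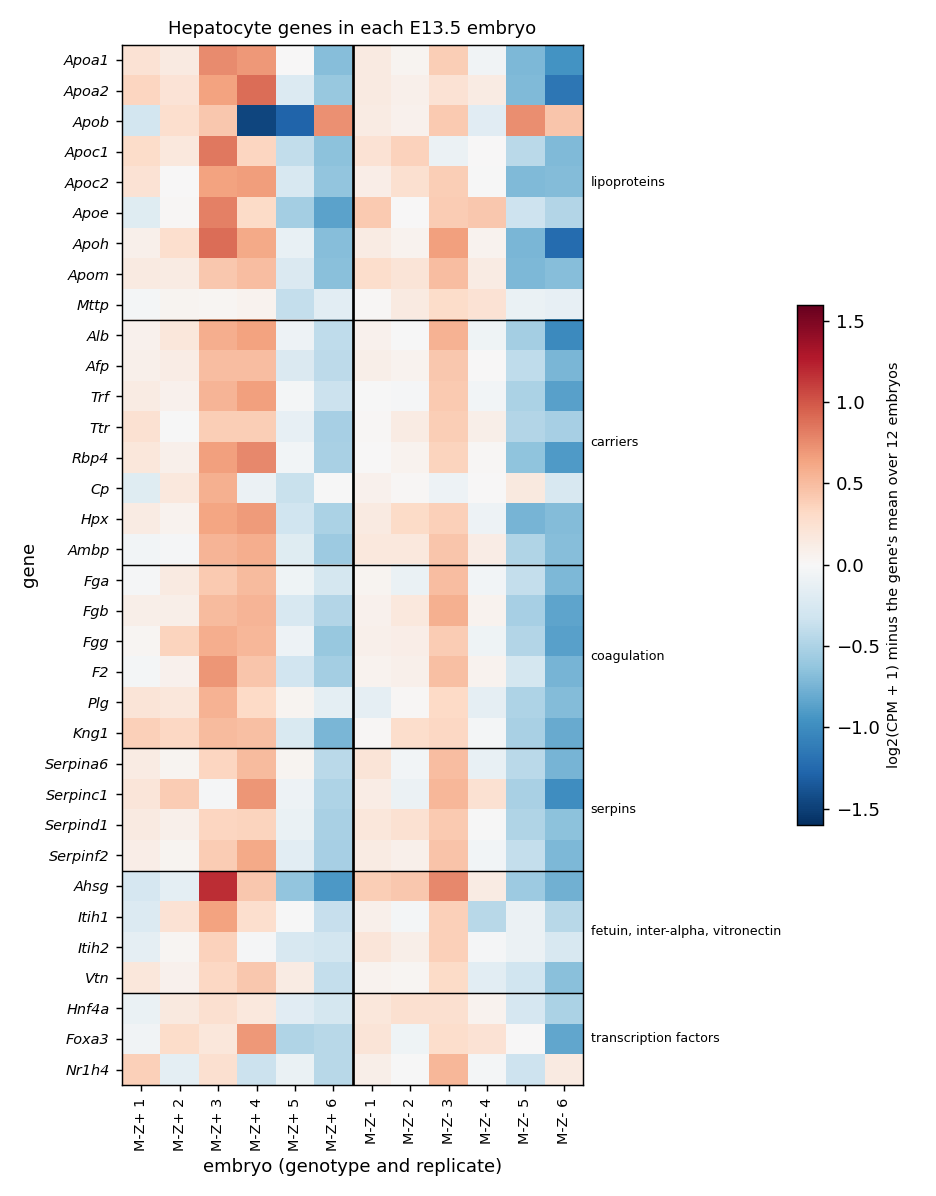
Colours give log2(CPM + 1) minus the mean of the gene over 12 embryos for each of the 34 tested genes (rows, by subgroup) in each embryo (columns, M-Z+ to the left of the line and M-Z- to the right). M-Z+ embryos 3 and 4 and M-Z- embryo 3 are high in most rows, while M-Z+ embryo 6 and M-Z- embryos 5 and 6 are low. The *Apob* row is lowest in M-Z+ embryos 4 and 5 and highest in M-Z+ embryo 6 and M-Z- embryo 5.

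Across the 12 embryos the CPM of *Alb* was compared with that of 7 genes, 6 of which are given here, with 100000 permutations and Benjamini-Hochberg adjustment over the 7. *Alb* and *Afp* had a Pearson r of 0.983 and a Spearman rho of 0.993 (n = 12, permutation p = 1e-05 for both, the smallest these permutations can give, adjusted p = 3.5e-05), and r was 0.972 without M-Z- embryo 6 and M-Z+ embryo 4, which were farthest from the median of *Alb*. For *Apoa1* r was 0.967 (permutation p = 1e-05, adjusted p = 3.5e-05) and rho was 0.958 (permutation p = 1e-05, adjusted p = 3.5e-05). For *Fgb* r was 0.975 (permutation p = 2e-05, adjusted p = 4.67e-05) and rho was 0.930 (permutation p = 5e-05, adjusted p = 0.000117). Without those 2 embryos r was 0.952 for *Apoa1* and 0.959 for *Fgb*. *Serpinc1* had an r of 0.895 (permutation p = 5e-05, adjusted p = 8.75e-05) and a rho of 0.825 (permutation p = 0.00146, adjusted p = 0.0017). *Hnf4a* had an r of 0.875 (permutation p = 0.0001, adjusted p = 0.00014) and a rho of 0.839 (permutation p = 0.00112, adjusted p = 0.00157). Without those embryos r was 0.758 for *Serpinc1* and 0.818 for *Hnf4a*. *Csf1r*, the macrophage growth factor receptor gene, had an r of 0.499 (permutation p = 0.0982, adjusted p = 0.0982, r = 0.614 without those embryos). Its rho was 0.517 (permutation p = 0.0888, adjusted p = 0.0888). The points of these relations share the library, the depth and the gene length slope. These 6 values of r were positive within each genotype as well, from 0.746 to 0.989 in M-Z+ embryos and from 0.914 to 0.998 in M-Z- embryos. For *Csf1r* they were 0.751 and 0.914, both above the value over all 12 embryos.

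The libraries also differed in how counts depended on gene length. The gene length slope, the change in log2(CPM + 1) per doubling of gene length over the tested genes of a library, was 0.599 to 0.608 in M-Z- embryos 5 and 6 and M-Z+ embryo 6 and 0.382 to 0.510 in the other 9. These were the 3 embryos in which most of the hepatocyte genes were low, and they were the 3 lowest embryos for 24 of the 34 genes (70.6%), as against 12.7% of all genes tested. Of the 34 genes, 33 had a lower mean log2(CPM + 1) in the 3 embryos than in the other 9, with a median difference of −0.74, whereas 51.9% of all genes tested were lower there, with a median of −0.02. For the 11 hepatocyte genes under 2000 bp the median difference was −0.90 (−0.26 over all 2196 genes of such length), for the 18 from 2000 to 6000 bp it was −0.71 (−0.08 over 7100 genes), and for the 5 over 6000 bp it was −0.18 (0.14 over 6730 genes). Within the longest class *Apob* (17662 bp) was higher in the 3 embryos by 0.85, *Cp* (14615 bp) differed by −0.04 and *Mttp* (6598 bp) by −0.18, but *Hnf4a* (8248 bp) was lower by 0.46 and *Serpinc1* (10752 bp) by 0.89 on the log2 scale. The length of *Serpinc1* is the one its counts and FPKM imply, and its positions overlap those of *Zbtb37*. Of the 3 embryos, 2 were M-Z-. Without the 3 embryos, a choice made once the data had been seen, the median log2 fold change of the 34 genes was −0.07. Of the 34, 24 were below 0 and none was called. In that fit 8688 of all 16052 genes tested were below 0, with a median of −0.02, and 16 were called. The part of the slope in the levels of these embryos was not tested.

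**Figure D5:**
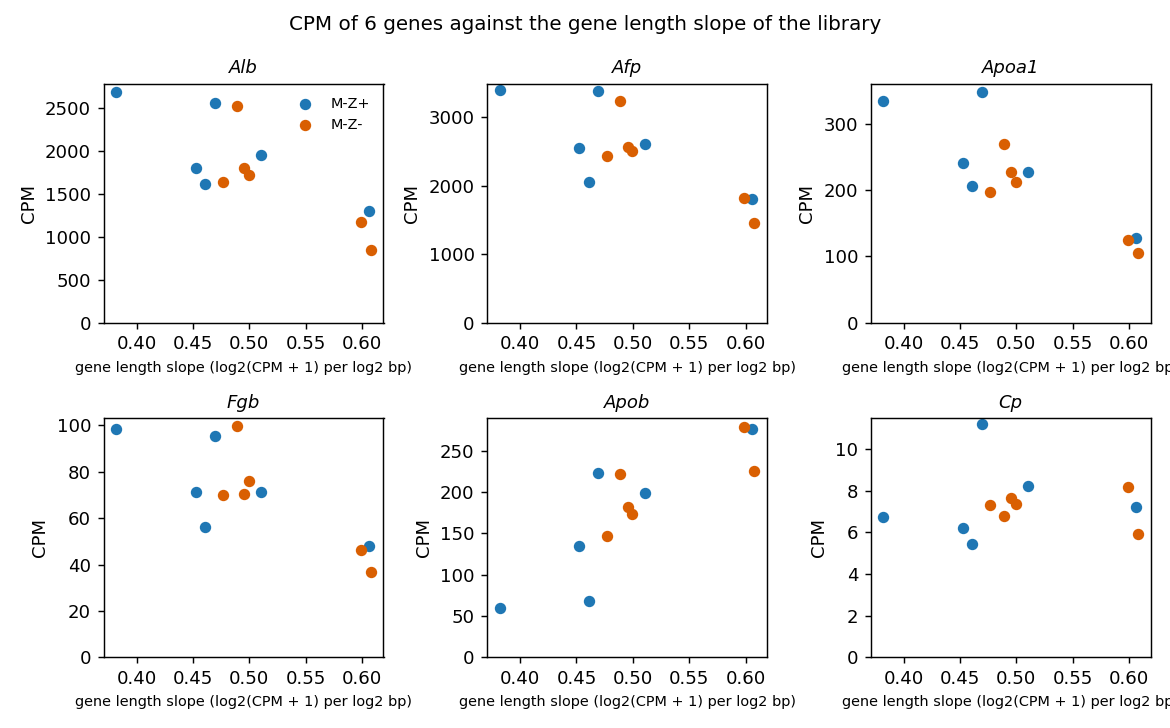
Points give the CPM (y axis) of *Alb*, *Afp*, *Apoa1*, *Fgb*, *Apob* and *Cp* in each embryo against the gene length slope of its library (x axis, log2(CPM + 1) per log2 bp), with M-Z+ embryos in blue and M-Z- embryos in orange. The 3 libraries with slopes of 0.599 to 0.608 have the lowest *Alb*, *Afp*, *Apoa1* and *Fgb* values and some of the highest *Apob* values, while *Cp* shows no such order.

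The ratio of *Alb* to *Afp* counts was 0.708 to 0.794 in M-Z+ embryos and 0.584 to 0.782 in M-Z- embryos, the lowest in M-Z- embryo 6. The ratio of *Apoa1* to *Apob* counts ran from 0.460 in M-Z+ embryo 6 to 5.63 in M-Z+ embryo 4, and from 0.449 to 1.35 in M-Z- embryos.

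Of 41 other genes of plasma proteins, a list of further complement, clotting and carrier genes, 31 were tested, edgeR called none in either direction, 22 had log2 fold changes below 0, and the median was −0.15 with genotype alone and 0.05 with the gene length slope. *C3*, the central complement protein gene, had 95.6 to 187 CPM in M-Z+ and 84.4 to 156 CPM in M-Z- embryos, and *Gc*, the vitamin D carrier gene, 11.3 to 35.5 and 14.4 to 38.8 CPM. Some plasma protein genes were at or near 0, among them *Apoa4*, *Hamp* and *Apoc3*, which stayed below 0.5 CPM in all embryos. Of 17 genes of the secretory pathway, which carries these proteins out of the cell, none was called, the median log2 fold change was 0.08, and the chaperone gene *Calr* and the disulfide isomerase gene *P4hb* overlapped between genotypes (714 to 1223 against 854 to 1110 CPM, and 584 to 876 against 615 to 926 CPM).

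Markers of other cell types were summed as TPM in each embryo. The 12 tested red cell genes summed to 22923 to 43932 TPM in M-Z+ and 30796 to 46545 TPM in M-Z- embryos, led by the primitive globin gene *Hbb-y* and the adult globin gene *Hbb-bs*, and none was called. Of these 12 genes, 10 had log2 fold changes below 0 and 2 above 0, from −0.32 to 0.46. Their median was −0.18 (−0.03 with the gene length slope), beside 27 of 34 below 0 and a median of −0.18 for the hepatocyte genes. The summed TPM of the red cell genes was on average higher in M-Z- embryos (mean 38445, SD 5984) than in M-Z+ embryos (mean 33387, SD 8001). The 10 macrophage genes summed to 206 to 321 TPM in M-Z+ and 250 to 367 TPM in M-Z- embryos, and 9 of them were tested. All 9 had log2 fold changes above 0, with a median of 0.09 (0.28 with the gene length slope). *Mrc1*, the mannose receptor gene, was chosen after its values were seen, with 42.0 to 62.6 CPM in M-Z+ and 70.8 to 80.0 CPM in M-Z- embryos (log2 fold change 0.58, edgeR adjusted p = 0.053, 0.035 with the gene length slope, DESeq2 adjusted p = 0.000118). Yolk sac endoderm genes were low, from 5.83 to 9.998 TPM summed over 4 genes, among them *Rhox5* at 0.47 to 1.45 CPM and *Lrp2* at 4.90 to 19.5 CPM. The log2 fold changes of the 4 yolk sac genes ran from −1.24 to 0.39. On the lower side 1 of the 4 passed the unadjusted edgeR p with the fold limit, as against 0.749% of all genes. Intestinal genes summed to 8.55 to 15.7 TPM, led by *Krt20* and *Lgals4*, and pancreatic genes to 5.36 to 15.3 TPM, led by *Gcg* and *Cpa1*, with *Cdx1*, *Pdx1* and *Ptf1a* at or near 0. *Gcg*, the glucagon gene, had 2.50 to 3.62 CPM in M-Z+ and 0.911 to 2.33 CPM in M-Z- embryos (log2 fold change −0.94, adjusted p = 0.31 by edgeR and 0.023 by DESeq2). Choroid plexus genes, whose tissue also makes *Ttr*, summed to 55.7 to 67.2 TPM (led by *Sostdc1* and *Clic6*), bile duct genes to 146 to 186 TPM (*Sox9* and *Epcam*), kidney genes to 60.6 to 96.9 TPM (*Six2* and *Lhx1*) and radial glia genes to 383 to 606 TPM (*Fabp7* and *Sox2*), and edgeR called no gene of these lists. The part of such cells in the levels of the hepatocyte genes was not tested.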

How the data were processed

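RNA was measured in 12 whole E13.5 embryos, 6 M-Z+ and 6 M-Z-, grouped by the sample labels. The authors deposited raw counts per gene, without normalization, and FPKM values made from them. The submitters' notes name Trim Galore 0.4.1, HISAT2 2.0.4 and mm10. How reads were counted, whether by strand and on which annotation, was not given in the sources used here. Reads of overlapping genes (*Apoc2* and *Apoc4*, *Hnf4a* and *Hnf4aos*, and others) could have been divided between them. FPKM served only for the gene length it implies, from which TPM and the gene length slope were computed. This length exceeds the span of the positions for some genes, among them *Apoe* (5592 bp, from 19696109 to 19699166 on chromosome 7), *Apoa2* and *Vtn*. The TPM and length class of such genes are therefore uncertain. Positions in the table overlapped GRCm38.p6 for 99.8% of 25647 genes matched by symbol.

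Counts were analysed with edgeR 4.0.16 in R 4.3.3 (filterByExpr, TMM, glmQLFit and glmQLFTest), with Benjamini-Hochberg adjustment over 16026 genes and no covariate. DESeq2 1.42.0, sva 3.50.0 (2 surrogate variables), library totals, no filter, a minimum mean of 50 counts, a block on the replicate number, the gene length slope (fitted as a covariate) and each embryo left out were alternatives. Figures were made with matplotlib 3.10.9. Permutation tests were run in Python 3.11.15, with SciPy 1.17.1 for ranks and for the adjustment over the relations with *Alb*. The exact test on 6 against 6 embryos can give no p below 0.00216. Total counts were 12005145 to 19216288 per library, and duplicates made by PCR could not be identified. Nothing says whether the embryos came from separate litters. The p-values set the difference between genotypes against the spread between embryos and treat the embryos as independent, which could not be checked.

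The genes and lists were chosen with earlier results of these data known. Named in full were, per subgroup, the 2 genes with the highest mean TPM, those with the lowest and highest log2 fold change, any gene called, and the transcription factors; from every other list the 2 tested genes with the highest mean TPM and any gene called by edgeR; other names were chosen after their values were seen. On simulated counts for this comparison (15885 genes, 100 changed at each size), edgeR recovered 89% at a log2 change of 1 and 100% at 2, with 4 false calls. Smaller changes were not simulated and the genes varied independently. Recovery of differences as small as those of the hepatocyte genes is therefore unknown. Of the 7 relations with *Alb*, 1 is not reported here.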

Additional observations from a re-analysis of the deposited data

How the results depend on the processing

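No hepatocyte gene was called under any of these alternatives: DESeq2, library totals, no filter, a mean of at least 50 counts, 2 surrogate variables, the gene length slope, each embryo left out, or the 3 embryos with the steepest slope left out. Their median log2 fold change was −0.18 and ranged from −0.29 to −0.08 with 1 embryo left out. It changed sign only with the gene length slope (0.05). The number of hepatocyte genes passing the unadjusted p with the fold limit was 0, and 0 to 3 with 1 embryo left out. The 3 were found without M-Z+ embryo 6, where 178 of all 16054 genes passed on the lower side and 390 on the higher side. Without the fold limit 1 hepatocyte gene (*Plg*) passed, and 5 did so without M-Z+ embryo 6 and 4 without M-Z- embryo 3. Among all genes tested, 1074 of 16026 passed with all embryos, 2603 of 16054 without M-Z+ embryo 6 and 996 of 16163 without M-Z- embryo 3. The number of hepatocyte genes was 1 without M-Z+ embryo 2, M-Z+ embryo 5 or M-Z- embryo 2, and 0 without any other single embryo. Over all genes, 13 were called by edgeR, 37 by DESeq2, 31 with 2 surrogate variables, 23 with the gene length slope, and 11 to 15 with 1 embryo left out.

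Among the 20 genes named in full, log2 fold changes that changed sign were −0.0226 for *Apob* and −0.0218 for *Hnf4a* with 2 surrogate variables, and −0.0133 for *Hnf4a* with library totals. With the gene length slope they were 0.0339 for *Afp*, 0.0952 for *F2*, 0.0423 for *Serpina6*, 0.0459 for *Serpinc1*, 0.140 for *Serpind1*, 0.0932 for *Serpinf2* and 0.162 for *Foxa3*, and over all 34 genes 15 turned from below to above 0 and 0 the other way. Without the 3 embryos of steepest slope it was 0.0358 for *Serpind1*. With 1 embryo left out the ranges that crossed 0 were −0.14 to 0.0899 for *Cp*, −0.26 to 0.0216 for *F2*, −0.19 to 0.0158 for *Serpind1*, −0.12 to 0.40 for *Ahsg*, −0.0545 to 0.0889 for *Hnf4a* and −0.21 to 0.10 for *Foxa3*. The cause was not tested.

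The labels do not say whether the replicate numbers pair the embryos. The correlation of same-numbered embryos ran from −0.01 to 0.68, and 4 of 12 correlated best with their own number, which does not decide it. When the replicate number was a block in the fit, 21 genes and no hepatocyte gene were called, and *Hnf4a* was at −0.00461. In that fit 12 hepatocyte genes on the lower side and 1 on the higher side (*Mttp*) had an unadjusted p below 0.05 without a fold limit, against 5.89% and 7.34% of all genes, whereas with genotype alone 1 did so. The depth of 12005145 to 19216288 counts leaves genes near 1 CPM, such as *Nr1h4* and *Fetub*, with few reads.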
